A study of Mus musculus with 13 samples.

Results

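The amino acid and peptide transporters were taken as every probe of the deposited array table whose gene symbol begins with Slc1a, Slc3a, Slc6a, Slc7a, Slc15a, Slc36a or Slc38a followed by a digit. That rule gave 82 of the 25697 probes, for 57 of its 18097 gene symbols. A probe was counted as detected in this tissue where its detection p-value, the array scanner's own comparison with negative-control beads, was under 0.05 on at least 5 of the 13 arrays. By that measure 37 of the 82 probes, for 29 of the 57 symbols, were detected. One of those symbols, Slc7a6os, is the gene that lies opposite Slc7a6 and is not itself a carrier, but its symbol meets the rule.

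Dietary protein is taken up by the small intestine as short peptides and as free amino acids. At the brush border, the enterocyte membrane that faces the gut lumen, peptides enter with protons through Slc15a1, and amino acids enter through carriers that each take a chemical class: neutral ones through Slc6a19, cystine and the cationic ones through Slc7a9 paired with Slc3a1, and the acidic ones through Slc1a1. Amino acids leave at the blood side largely through Slc7a7 and Slc7a8, each of which has to pair with the glycoprotein Slc3a2. The same gene families also hold carriers for neurotransmitters, taurine and creatine.

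Proximal small intestine was taken from C57BL/6J mice, all male, and total RNA of each mouse was hybridised to its own 1-colour Illumina MouseRef-8 v2.0 array. Chow containing 0.005% ezetimibe, a drug that blocks cholesterol uptake in the gut, was given to 5 mice. Regular chow was given to 8 control mice. The study, as its title says, was about cholesterol passing across the intestinal wall and into the faeces, and the labels give neither the age of the mice nor the length of treatment. The labels call each array a separate biological replicate. In whole intestine, fewer cells of a type and less RNA per cell cannot be told apart.

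The arrays lay on 2 slides, with 2 ezetimibe and 4 control arrays on slide 1 and 3 ezetimibe and 4 control arrays on slide 2. Arrays of slide 1 had median signal intensities between 146.9 and 152.8, and those of slide 2 between 120.7 and 127.9, so slide was a term in every comparison. Between 11085 and 12380 probes were detected per array, and 33 to 39 of these were transporter probes. Of 7 enterocyte marker genes on the array, Vil1, Sis, Apoa1 and Apoa4 were detected on all 13 arrays and Cdh17 on 12, while the probes of the fatty acid binding proteins Fabp1 and Fabp2 were detected on 0. The mean log2 level of the detected enterocyte markers spanned 12.23 to 12.45 in ezetimibe mice and 12.11 to 12.47 in control mice. Levels below are log2 of the normalised signal after the fitted difference between slides was taken out. They are compared between mice for 1 probe at a time, because the brightness of different probes cannot be set against each other.

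Ezetimibe and control intestine did not differ past the threshold at any detected transporter probe, and the transporter signal that moved most between mice was that of Slc38a5, which followed the level of exocrine pancreas markers in the sample. Promoters of 3 genes on which the results below turn are shown from the RefSeq table for mouse build GRCm38.p6, each from 250 bases before to 50 after an annotated start. They are read 5′ to 3′ on the gene's own strand. Slc38a5 (chrX:8271131-8271430, plus strand) and Slc6a9 (chr4:117835008-117835307, plus strand, the first of its 3 windows) followed the pancreatic signal. Slc1a4 (chr11:20332664-20332963, minus strand) had the largest difference between ezetimibe and control mice among the detected transporter genes, each taken at its brightest probe. Capitals mark matches to the 4 motifs described after the sequences.
Slc38a5: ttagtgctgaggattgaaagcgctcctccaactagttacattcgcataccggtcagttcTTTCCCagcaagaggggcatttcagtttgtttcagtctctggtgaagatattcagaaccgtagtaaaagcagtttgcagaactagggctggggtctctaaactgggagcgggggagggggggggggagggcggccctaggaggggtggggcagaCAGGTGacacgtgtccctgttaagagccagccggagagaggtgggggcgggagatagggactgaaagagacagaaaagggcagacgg
Slc6a9: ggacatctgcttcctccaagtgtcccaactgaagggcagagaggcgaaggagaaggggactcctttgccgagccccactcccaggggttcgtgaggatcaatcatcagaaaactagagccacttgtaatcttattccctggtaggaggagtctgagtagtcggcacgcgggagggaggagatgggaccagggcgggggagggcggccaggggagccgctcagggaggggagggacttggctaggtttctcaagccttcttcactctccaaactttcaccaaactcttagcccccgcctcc
Slc1a4: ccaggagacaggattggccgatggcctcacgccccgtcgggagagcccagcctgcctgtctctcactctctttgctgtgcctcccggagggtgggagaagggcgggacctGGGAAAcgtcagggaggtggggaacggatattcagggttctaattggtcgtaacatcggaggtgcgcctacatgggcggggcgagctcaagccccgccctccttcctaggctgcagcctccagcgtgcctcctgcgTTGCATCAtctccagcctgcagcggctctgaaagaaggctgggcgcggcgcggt
The search covered both strands. The capitals in the Slc38a5 window are TTTCCC, a core of the TC box, and CAGGTG, the reverse strand of the E box CACCTG; in pancreatic gene promoters these motifs are bound by the acinar factors of the PTF1 complex. Of 32851 promoter windows of this length in the table, 25.2% held TTTCCC, 20.2% held CACCTG and 4.86% held both. Windows were found for 23 of the 29 detected transporter genes. Only Slc38a5 among those 23 genes, which have 35 windows, held both motifs in 1 window. That is not above the share of all windows, so nothing is read from it. No window of Slc6a9 held any of the 4 motifs. The capitals in the Slc1a4 window mark GGGAAA, the reverse strand of TTTCCC, and TTGCATCA, the reverse strand of TGATGNAA, the core of the amino acid response element through which ATF4 acts. This core was in 3.97% of all windows, and among the transporter genes in those of Slc1a4 and Slc7a7. The sterol regulatory element core TCACNCCAC was in 1.24% of all windows and in those of 0 of the 23 transporter genes. A match of letters is a description and not a binding site.

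Fewer than 1 in 2 of the 82 probes had signal in this tissue. On all 13 arrays 25 probes were detected, 12 were detected on 5 to 12 arrays, 21 on 1 to 4 and 24 on 0. The detected share was 45.1% of the transporter probes, against 46.3% of all probes on the array. By family, the detected genes were 5 of 7 symbols of Slc1, 0 of 1 of Slc3, 8 of 18 of Slc6, 7 of 15 of Slc7, 3 of 4 of Slc15, 1 of 3 of Slc36 and 5 of 9 of Slc38. Classical absorptive carriers were among the 29 genes detected: Slc15a1, Slc6a19, Slc7a9, Slc1a1, Slc36a1, Slc7a7 and Slc7a8 each had at least 1 probe with signal on all 13 arrays.

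**Figure D1:**
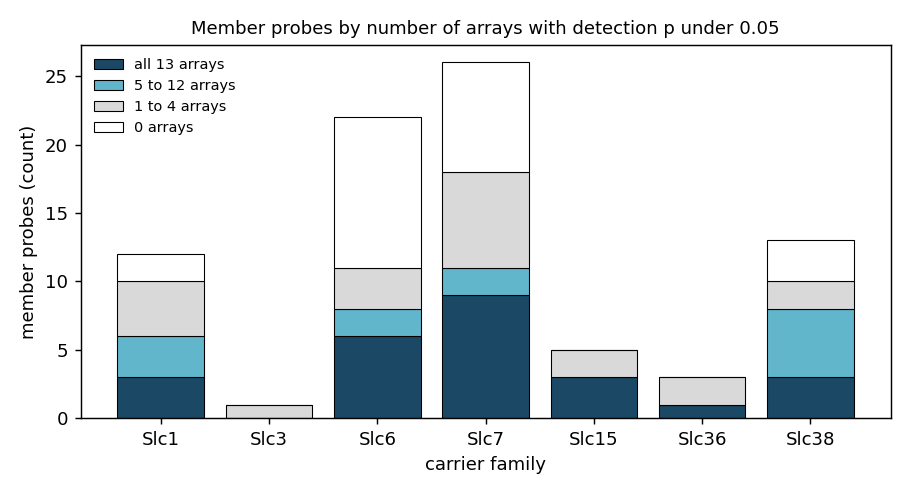
Number of transporter probes in each carrier family (vertical axis), divided by the number of arrays with a detection p-value under 0.05. Over all families, 25 probes were detected on all 13 arrays, 12 on 5 to 12, 21 on 1 to 4 and 24 on 0, and Slc6 and Slc7 hold the most probes.

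The 28 genes that were not detected held members with known roles in the gut as well as carriers of the brain and kidney. Slc3a2, the partner chain of Slc7a7 and Slc7a8, was detected on 1 array at its single probe. The glutamine and neutral amino acid exchanger Slc1a5 was detected on at most 2 arrays, the cationic carrier Slc7a1 on at most 2 and the cystine-glutamate exchanger Slc7a11 on at most 1. Slc15a2, the peptide carrier best known from kidney, was detected on at most 3 arrays. At 14 genes every probe was detected on 0 arrays, among them the GABA carriers Slc6a11 and Slc6a13, the noradrenaline carrier Slc6a2, the glycine carrier Slc6a5 and the kidney carriers Slc6a18 and Slc7a13. A probe without signal over background gives no level and does not show that the RNA was absent. No probe of the table carried the symbol Slc3a1, Slc6a20a or Slc7a5, so these were not analysed here.

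Ezetimibe against control, with slide in the model, called 0 of the 37 detected transporter probes at an adjusted p under 0.10 (limma, Benjamini-Hochberg over all 11887 tested probes). The same comparison called 30 of all tested probes, or 0.252%, of which 28 were higher in ezetimibe mice (0.236%) and 2 lower (0.0168%). At an unadjusted p under 0.05 there were 4 transporter probes, which is 10.8% of the 37, beside 6.18% of all tested probes. After adjustment for slide, the levels of ezetimibe and control mice did not overlap at 1 transporter probe (2.70% of them), beside 0.623% of all tested probes. That probe, the second of Slc1a1, is also 1 of the 4 with an unadjusted p under 0.05 and was detected in control mice alone, so nothing is read from either share. Taking the brightest probe of each of the 29 genes, the log2 differences between ezetimibe and control lay between -0.24 and 0.31, with a median of -0.076. Over all 8974 tested genes the median was 0.00031. Values above 0 were found for 12 of the 29 transporter genes (41.4%) and for 50.1% of all tested genes. With arrays scaled to equal medians in place of quantile normalisation, the median of the transporter genes was -0.0030 while that of all tested probes was 0.088.

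**Figure D2:**
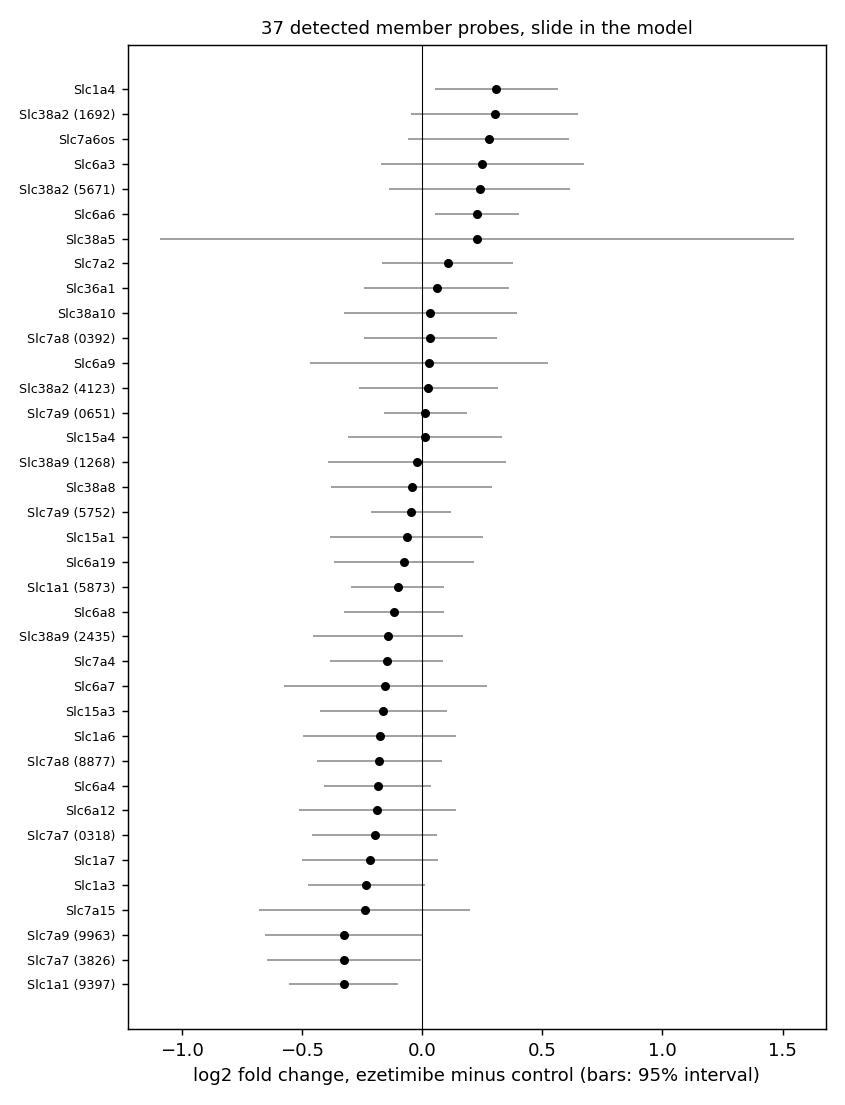
Log2 difference between ezetimibe and control with its 95% confidence interval for each of the 37 detected transporter probes, with the last digits of the probe identifier in brackets where a gene has several. Estimates lie on both sides of 0, 22 below and 15 above, and none passed the threshold after adjustment over all tested probes; the lowest, of Slc1a1, rests on ezetimibe signals not above background.

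The carriers of the brush border had overlapping levels in ezetimibe and control mice, apart from 1 dim probe of Slc1a1. Slc15a1, the proton-coupled carrier for di- and tripeptides, had log2 levels of 5.96, 6.01, 5.84, 6.21 and 5.71 in the 5 ezetimibe mice, against a lowest, median and highest of 5.57, 6.00 and 6.37 in the 8 control mice. All 5 ezetimibe values lay inside the control range. The difference of ezetimibe minus control was -0.065 ± 0.15 (SE; 95% confidence interval -0.38 to 0.25; limma adjusted p = 0.973).

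Slc6a19, the main sodium-coupled carrier for neutral amino acids, had 9.86, 10.50, 10.08, 10.10 and 10.38 in ezetimibe mice, against 9.97, 10.22 and 10.74 (lowest, median, highest) in control mice. Only the first ezetimibe mouse lay below the control range. The difference was -0.076 ± 0.14 (SE; interval -0.37 to 0.21; limma adjusted p = 0.962), and without that mouse, or with median scaling, its sign was positive. Slc7a9, the transport chain for cystine and cationic amino acids, had 11.18, 11.30, 11.36, 11.24 and 11.29 at its brightest probe in ezetimibe mice, and 11.04, 11.20 and 11.53 (lowest, median, highest) in control mice. The ezetimibe values lay together in the middle of the control range. The interval of the difference, -0.16 to 0.18 around 0.012 ± 0.081 (SE; limma adjusted p = 0.992), reached no more than 0.18 to either side of 0. The other 2 probes of Slc7a9 gave -0.047 ± 0.078 and -0.32 ± 0.15 (SE; limma adjusted p = 0.959 and 0.807).

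Slc1a1, the carrier for glutamate, aspartate and cysteine, was read by 2 detected probes. The probe with signal on all arrays had 7.19, 6.98, 7.09, 7.15 and 7.19 in ezetimibe mice, against 7.10, 7.21 and 7.45 (lowest, median, highest) in control mice, a difference of -0.10 ± 0.092 (SE; limma adjusted p = 0.912). The second probe was detected in 0 of 5 ezetimibe mice and in 7 of 8 control mice. Its levels were 4.59, 4.72, 4.61, 4.67 and 4.70 in ezetimibe mice and 4.78, 4.96 and 5.21 (lowest, median, highest) in control mice, so that every ezetimibe mouse lay below every control mouse. Among the 37 detected probes this was the 1 whose groups did not overlap. A probe of Slc38a4 that was detected on 0 arrays also had ezetimibe signals (up to 4.35) below the control signals (from 4.38), so such a separation occurred in background signal too. The second probe of Slc1a1 had means of 4.66 ± 0.06 in ezetimibe mice (SD, n = 5) and 4.98 ± 0.14 in control mice (SD, n = 8). Since it was not well above background on any ezetimibe array, the control mean was also set against the lowest signal of a detected probe on each ezetimibe array. The control mean was 1.11-fold above the mean of those lowest signals. That value compares means without their sampling error, so it is not a minimum for the difference. The interval of the fitted difference was -0.55 to -0.10. The adjusted p of the fit in limma was 0.532. The probe met the minimum of 5 arrays through the control mice alone, so a difference in this direction was built into its selection, and nothing is read from its separation. The brighter probe of the gene did not show the same separation.

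Slc36a1, a proton-coupled carrier for small amino acids such as glycine and proline, had 5.71, 5.71, 6.08, 5.46 and 5.86 in ezetimibe mice, against 5.42, 5.76 and 5.97 (lowest, median, highest) in control mice. The difference was 0.060 ± 0.14 (SE; interval -0.24 to 0.36; limma adjusted p = 0.974). Slc6a6, the taurine carrier, had 11.35, 11.33, 11.48, 11.61 and 11.42 in ezetimibe mice and 11.02, 11.22 and 11.40 (lowest, median, highest) in control mice. Of the 5 ezetimibe values, 3 lay above the highest control value. The difference was 0.23 ± 0.082 (SE; interval 0.05 to 0.40), with an unadjusted p of 0.0134 and an adjusted p of 0.689 in limma, and it was 0.08 on slide 1 and 0.34 on slide 2. Slc6a8, the creatine carrier, had 11.45, 11.90, 11.95, 11.86 and 11.81 in ezetimibe mice and 11.61, 11.90 and 12.10 (lowest, median, highest) in control mice, a difference of -0.12 ± 0.098 (SE; limma adjusted p = 0.901), with the first ezetimibe mouse lowest of all 13.

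**Figure D3:**
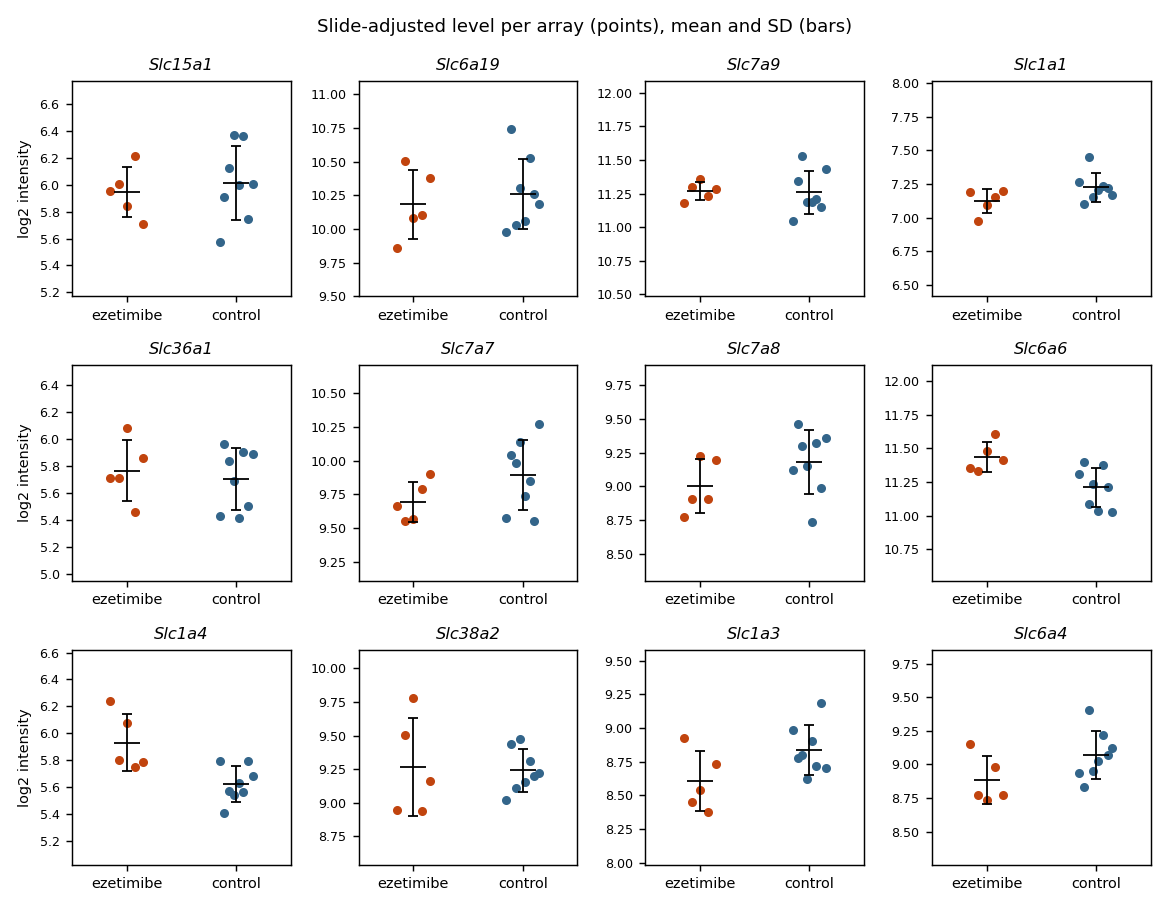
Slide-adjusted log2 normalised signal in each mouse (points) at the brightest probe of 12 transporters, with the 5 ezetimibe mice left of the 8 control mice in each panel and bars at the mean and SD. Ezetimibe and control mice overlap in every panel. The difference is largest at Slc1a4 (0.31, ezetimibe higher), followed by Slc1a3 (-0.23, ezetimibe lower) and Slc6a6 (0.23, ezetimibe higher).

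Carriers of the blood side also had overlapping levels, with the estimates of their brightest probes below 0. Slc7a7, which exchanges cationic for neutral amino acids, had 9.66, 9.55, 9.57, 9.79 and 9.90 in ezetimibe mice, against 9.55, 9.92 and 10.27 (lowest, median, highest) in control mice. The difference was -0.20 ± 0.12 (SE; interval -0.46 to 0.06; limma adjusted p = 0.857). A second probe of Slc7a7 had 9.34, 9.30, 9.40, 9.44 and 8.92 in ezetimibe mice and 9.22, 9.56 and 10.24 (lowest, median, highest) in control mice, and gave -0.33 ± 0.15 (SE; unadjusted p = 0.046; limma adjusted p = 0.784). At both probes all ezetimibe values were below the control median. Slc7a8, the exchanger for neutral amino acids, had 8.78, 8.91, 9.23, 8.91 and 9.19 in ezetimibe mice and 8.73, 9.23 and 9.47 (lowest, median, highest) in control mice. Its difference was -0.18 ± 0.12 (SE; interval -0.44 to 0.08; limma adjusted p = 0.871), but slide 1 gave -0.42 and slide 2 gave 0.01, while the other detected probe gave 0.034 ± 0.13.

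Slc1a4, an exchanger for alanine, serine and cysteine, had the largest difference at a brightest probe, above 0. Its levels were 6.24, 5.80, 6.08, 5.75 and 5.79 in ezetimibe mice, against 5.41, 5.60 and 5.79 (lowest, median, highest) in control mice. Every ezetimibe mouse was above the control median, and the groups overlapped at their edges. The means were 5.93 ± 0.21 in ezetimibe mice (SD, n = 5) and 5.62 ± 0.13 in control mice (SD, n = 8). The difference of 0.31 ± 0.12 (SE; interval 0.05 to 0.57) had an unadjusted p of 0.0217 and an adjusted p of 0.734 in limma, with 0.44 on slide 1 and 0.20 on slide 2. Slc38a2, a sodium-coupled carrier for neutral amino acids that cells induce on amino acid shortage, had 8.95, 9.50, 9.78, 8.94 and 9.16 at its brightest probe in ezetimibe mice and 9.02, 9.21 and 9.48 (lowest, median, highest) in control mice. The ezetimibe values spread past both ends of the control range, and the difference was 0.025 ± 0.14 (SE; interval -0.26 to 0.31; limma adjusted p = 0.989). Its other 2 detected probes gave 0.30 ± 0.16 and 0.24 ± 0.18 (SE; limma adjusted p = 0.838 and 0.880). The first of these was detected on only 6 arrays, 3 of ezetimibe and 3 of control mice, and the second on 11. Signals near background thus entered both values.

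Carriers known best from nerve, glia and endocrine cells were detected as well. Slc1a3, a glutamate carrier of glial cells, had 8.92, 8.45, 8.54, 8.38 and 8.73 in ezetimibe mice, against 8.62, 8.79 and 9.19 (lowest, median, highest) in control mice. Of the ezetimibe values 3 lay below the lowest control, and the difference was -0.23 ± 0.11 (SE; interval -0.47 to 0.01; unadjusted p = 0.0588; limma adjusted p = 0.828). Slc6a4, the serotonin carrier through which enterocytes clear serotonin, had 9.15, 8.78, 8.74, 8.98 and 8.77 in ezetimibe mice and 8.83, 9.05 and 9.40 (lowest, median, highest) in control mice. Here too 3 ezetimibe values lay below the lowest control. The difference was -0.19 ± 0.10 (SE; interval -0.41 to 0.04; unadjusted p = 0.0961; limma adjusted p = 0.840). Slc1a7, a glutamate carrier of retina, was detected in 3 of 5 ezetimibe mice and had 4.90, 4.80, 4.80, 4.99 and 4.84 there, against 4.73, 5.03 and 5.43 (lowest, median, highest) in control mice. The difference was -0.22 ± 0.13 (SE; interval -0.50 to 0.06; limma adjusted p = 0.854). The non-carrier Slc7a6os had 4.92, 5.21, 5.57, 5.07 and 5.27 in ezetimibe mice and 4.61, 4.88 and 5.38 (lowest, median, highest) in control mice, a difference of 0.28 ± 0.16 (SE; limma adjusted p = 0.841). Ezetimibe and control values overlapped at each of these 4 genes.

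The remaining detected members had intervals that included 0. Of the lysosomal carriers, Slc15a3 and Slc15a4, which move peptides and histidine, gave -0.16 ± 0.12 and 0.011 ± 0.15 (SE), and Slc38a9, which takes part in lysosomal arginine sensing, gave -0.14 ± 0.15 at its brightest probe. Slc7a15, at which control mice spread from 7.40 to 8.72 and ezetimibe mice from 7.55 to 8.07, gave -0.24 ± 0.21. The betaine and GABA carrier Slc6a12 gave -0.19 ± 0.15, and the dopamine carrier Slc6a3, detected in 3 of 5 ezetimibe mice and 5 of 8 control mice, gave 0.25 ± 0.20. Slc1a6, Slc6a7, Slc7a2, Slc7a4, Slc38a8 and Slc38a10 lay between -0.18 and 0.11. Their adjusted p-values in limma were 0.884 to 0.997. Over the 37 probes, the sign was the same on both slides at 24 (64.9%), below 0 on both at 17 and above 0 on both at 7, beside 54.9% of all tested probes with 1 sign on both slides. Of all 11887 tested probes, 3319 were below 0 on both slides and 3208 above.

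Marker levels of T and NK cells and of red blood cells differed in median between the groups, and their part in the results was not tested beyond the slopes given here. The mean log2 level of the 5 detected T and NK cell markers spanned 7.68 to 9.09 in ezetimibe mice (median 7.81) and 7.77 to 9.26 in control mice (median 8.91). That of the 3 detected red blood cell markers spanned 7.04 to 7.79 in ezetimibe mice and 6.40 to 7.42 in control mice. With either level as the regressor beside slide and group, 0 of the 37 transporter probes had a slope past an adjusted p of 0.10 in limma, and 2 had an unadjusted p under 0.05 in each case. All tested probes passed at 0.522% for T and NK cells and 0.00841% for red blood cells, and 5.89% and 5.11% of them had an unadjusted p under 0.05.

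Slc38a5 and Slc6a9, chosen after their values were seen, followed the exocrine pancreas markers. All 15 pancreas markers on the array, digestive enzymes of acinar cells among them, were detected, and 1 of the 15, Zg16, is also made by goblet cells. Their mean log2 level was 7.15, 11.33, 10.53, 12.86 and 6.55 in the 5 ezetimibe mice, against 6.47, 8.80 and 12.03 (lowest, median, highest) in the 8 control mice. The level thus varied widely within both groups, which overlapped, and its median was higher in ezetimibe mice, at 10.53. A fit with slide, group and this level called 2 of the 37 transporter probes at an adjusted p under 0.10, beside 51 or 0.429% of all tested probes. Nearly all of the 51 (0.412% of those tested) had a positive slope. Of the 2 transporter probes, that of Slc38a5 was detected only on arrays high in these markers. The count of 2 is therefore a description and not a test. The 15 markers that make up the level were among all tested probes, as were the markers in the other fits of this kind. Such a share, and its direction, is therefore not independent of the level.

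Slc38a5, a carrier for glutamine, asparagine and histidine, had 4.70, 6.23, 5.19, 7.55 and 4.16 in ezetimibe mice, against 4.24, 4.91 and 7.38 (lowest, median, highest) in control mice. It was not above background in ezetimibe mice 1 and 5, and ezetimibe mouse 4, highest in Slc38a5, was also highest in pancreas markers. Per log2 unit of the marker level it was higher by 0.53 ± 0.057 log2 units (SE; limma adjusted p = 4.49e-05). It was detected on the 7 arrays with a marker level of 9.29 or more and on none of the other 6, whose levels were 8.32 or less and whose background signals entered the slope. Slc38a5 thus met the minimum of 5 arrays through arrays high in the markers alone, so a positive slope was built into its selection. Its slopes and their p-values, here and in the refits, are a description and not a test. Its residual spread in the ezetimibe comparison was above that of 99.6% of all tested probes, and the ezetimibe minus control difference was 0.23 ± 0.62 (SE; interval -1.09 to 1.55; limma adjusted p = 0.975). With 1 array left out at a time the slope stayed between 0.49 and 0.57 and was called in each of the 13 fits. With the gene's deposited processed values in place of those normalised here, the slope was 0.10 (limma adjusted p = 0.000769). The marker level in that fit was still the one normalised here, so the size of this slope is on another scale. In the values normalised here, the slope was 0.63 ± 0.069 on the 8 control arrays alone (SE, limma adjusted p = 0.00102).

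Slc6a9, the glycine carrier, had 5.97, 7.00, 6.95, 6.83 and 5.80 in ezetimibe mice, against 5.93, 6.48 and 7.04 (lowest, median, highest) in control mice. The 2 ezetimibe mice with the least pancreas signal were the lowest of their group. The slope was 0.18 ± 0.032 (SE; limma adjusted p = 0.0137), and it was called in 12 of the 13 fits that left out 1 array. Without the fifth ezetimibe mouse it was 0.16 with an adjusted p of 0.151 in limma. On the control arrays alone it was 0.16 (limma adjusted p = 1.000), and it was not called on either slide alone, at 0.22 on slide 1 (adjusted p = 0.708) and 0.16 on slide 2 (adjusted p = 0.547). Without the 2 arrays highest in the markers it was 0.24 and was called (limma adjusted p = 0.0306). With the deposited processed values of Slc6a9 against the marker level normalised here, the slope was 0.042, on another scale (limma adjusted p = 0.0123). The ezetimibe minus control difference of Slc6a9 was 0.027 ± 0.23 (SE; interval -0.47 to 0.52; limma adjusted p = 0.995).

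**Figure D4:**
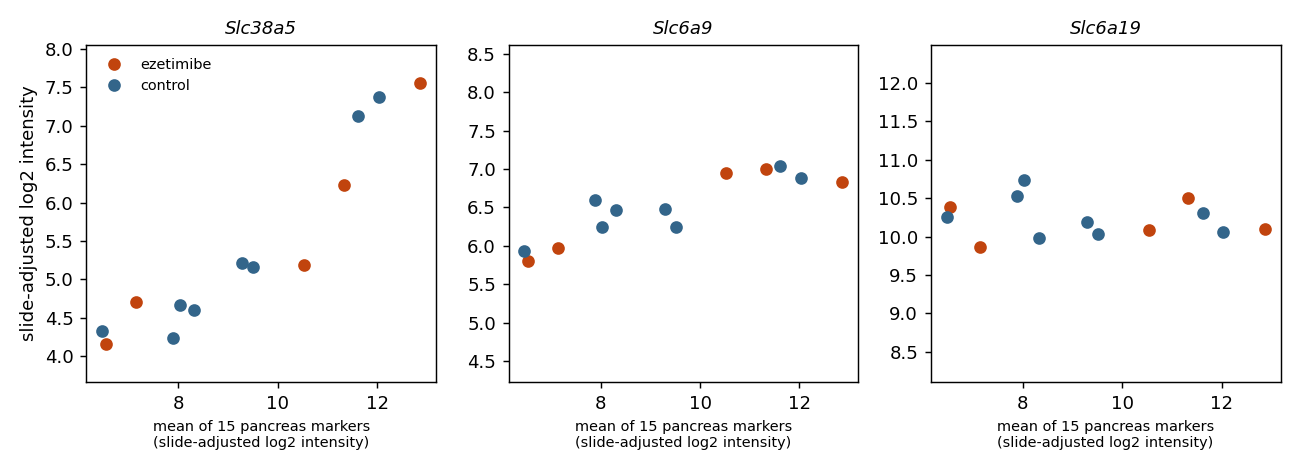
Slide-adjusted log2 signal of Slc38a5, Slc6a9 and, for comparison, Slc6a19 in each mouse (vertical axes) against the mean log2 level of the 15 pancreas markers (horizontal axis), with ezetimibe and control mice in different colours. Slc38a5 lies between 4.16 and 7.55 and is high where the pancreas markers are high in both groups, Slc6a9 is less steep, and Slc6a19 was not called.

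No other marker level gave a called transporter slope: the counts in limma were 0 of 37 for the enterocyte, smooth muscle, neuron and glia, and enteroendocrine levels, with 0, 3, 4 and 1 probes at an unadjusted p under 0.05. The background of called probes was 0%, 0.118%, 0% and 0.0168% of all those tested. At an unadjusted p under 0.05 it was 4.71%, 9.63%, 7.47% and 10.3%, so nothing is read from the transporter counts. Over the arrays these levels spanned 0.35, 0.69, 0.76 and 0.63 log2 units, against 6.39 for the pancreas level. Those of T and NK cells and of red blood cells spanned 1.58 and 1.39. A missing call at a narrower span cannot be set against the calls of the pancreas fit. Only 3 of 9 neuron and glia markers were detected, and those not detected included Elavl4, Elavl3, Snap25, S100b and Gfap.

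Genes that work with the carriers were read from 4 lists, and none of these genes passed an adjusted p of 0.10 in limma in either direction. Of the peptidases that split peptides at the brush border and in the cytosol, 15 of 19 were tested, 6 were above 0 and 1 had an unadjusted p under 0.05. Their median was -0.040, with Mme (neprilysin) at -0.37 ± 0.17 and Ace at -0.46 ± 0.22 (SE; limma adjusted p = 0.778 and 0.828). Of other amino acid carriers and their partners, 8 were tested and 3 were above 0, with a median of -0.020. The neutral amino acid carrier Slc43a2 was at -0.44 ± 0.18 and the scaffold Pdzk1 at -0.23 ± 0.12 (SE; limma adjusted p = 0.745 and 0.838).

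Targets of ATF4, the factor that acts in amino acid shortage, were tested at 24 of 27 genes, of which 16 were above 0 and 0 had an unadjusted p under 0.05. Their median was 0.079, beside 0.00031 for all tested genes. The asparaginyl-tRNA synthetase Nars was at 0.18 ± 0.10 and the stress factor Ddit3 at -0.23 ± 0.13 (SE; limma adjusted p = 0.838 and 0.841). Enzymes of amino acid breakdown were tested at 11 genes, of which 4 were above 0 and 1 had an unadjusted p under 0.05, with a median of -0.020. Ornithine aminotransferase, Oat, was at -0.38 ± 0.15 and glutamate dehydrogenase, Glud1, at -0.36 ± 0.19 (SE; limma adjusted p = 0.734 and 0.832).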

How the data were processed

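The authors deposited a table of signal intensity values per probe, not normalised, and a detection p-value for each, per the file headers. They also deposited processed intensity values that, per the design text with the labels, were quantile normalised, batch corrected with Combat and analysed by IBMT in MADMAX; the IBMT statistic was not run here. The table was background corrected and quantile normalised with neqc (offset 16) in limma 3.58.1 under R 4.3.3. The 11887 probes with a detection p-value under 0.05 on 5 or more arrays were fitted with slide and group (lmFit, eBayes with a trend), with Benjamini-Hochberg adjustment and a threshold of 0.10. The code was tested on simulated data. Named genes were the 8 of smallest p, each by its brightest probe, and a set of absorptive and amino acid stress carriers; the pathway genes named are the 2 of smallest p in each list. The members and lists were chosen with earlier results of these data known. Array number limits the precision. Other backgrounds, scalings, filters, slide terms, covariates and left-out arrays were tried.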

Additional observations from a re-analysis of the deposited data

Results flagged for a closer look

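Of 74 sets of values (37 probes in ezetimibe or control mice), 6 held a mouse set apart from the rest of its group by Dixon's test at the 95% level, and chance gives about 1 in 20. In ezetimibe mice, Slc38a8 was 5.15 in mouse 5, against 4.62 to 4.70 in the others. Slc6a12 was 5.53 in ezetimibe mouse 3, against 6.12 to 6.33. Slc6a8 was 11.4 in ezetimibe mouse 1, against 11.8 or more. The second probe of Slc7a7 was 8.92 in ezetimibe mouse 5, against 9.30 to 9.44. In control mouse 3, Slc15a3 was 5.94 and the brighter probe of Slc1a1 was 7.45, against 6.27 to 6.49 and 7.10 to 7.27 in the other control mice. The causes were not tested.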

How the results depend on the processing

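No transporter probe passed the threshold for ezetimibe against control under any of the 33 other settings. The lowest adjusted p in limma was 0.181, at the second probe of Slc1a1, adjusted over the probes past 1.1-fold alone. Those probes were picked by the size of the same difference. Adjusted p-values over them, and counts that rest on these, therefore do not control the error rate. Of 17 transporter probes followed, 8 kept their sign under every setting. All tested probes past the threshold numbered 17 without a slide term, 6 on slide 1 alone, 10 on slide 2 alone, 81 when adjusted over the probes past 1.1-fold alone and 19 with the probes of a gene averaged, and 20 to 45 with 1 mouse left out, against 30. The median of the transporter genes was -0.0030 with median scaling, and -0.022 and -0.020 in the deposited processed values with and without slide. It was 0.0095 on slide 2 alone and -0.12 to -0.063 with 1 mouse left out. Among transporter genes past the 1.1-fold limit it was -0.17, while the median of all probes past that limit was 0.14. Detection on at least 1 array would give 58 probes. The pancreas fit, whose alternatives were added after seeing the data, called 1 probe on slide 1, on slide 2 and on control arrays alone, and 1 to 2 with 1 array left out. Slc38a5, whose selection built in a positive slope, was called in each of these fits, so the counts are a description.

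Some ezetimibe minus control values changed sign. On slide 1 alone, Slc36a1 was -0.018, Slc38a2 -0.036, Slc6a9 -0.0099 and Slc7a9 -0.038, and on slide 2 alone Slc7a8 was 0.0095. Slc7a9 was -0.057 without slide, -0.00037 with slide as a random block, -0.027 with array position and -0.12 with its probes averaged. Median scaling gave 0.077 for Slc6a19. With the pancreas level as a covariate, Slc38a5 was -0.060 and Slc6a9 -0.070. With 1 mouse left out, the ranges were -0.019 to 0.14 (Slc36a1), -0.10 to 0.13 (Slc38a2), -0.27 to 0.59 (Slc38a5), -0.18 to 0.028 (Slc6a19), -0.13 to 0.20 (Slc6a9) and -0.018 to 0.049 (Slc7a9). Deviations of same-numbered mice had correlations of -0.42 to 0.36. These were not compared with differently numbered mice, so they do not settle whether the numbers pair the samples. A fit with the replicate number as a block used replicates 1 to 5 alone, so control mice 6, 7 and 8 were left out. That fit called 0 transporter probes and 23 of all tested. It gave 0.063 for Slc15a1, -0.00030 for Slc38a2, -0.52 for Slc38a5, -0.27 for Slc6a9 and -0.092 for Slc7a6os. The block and the smaller set of mice were not separated. The causes of these shifts were not tested. Signals near background, such as those of the second Slc1a1 probe, limit what can be read.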
